A study of Mus musculus with 6 samples.

Results

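The 10 genes described here, whose products act in germ cells, were followed in mouse embryonic stem cells (mESCs), chosen by name and found once each among the 55385 genes of the count table: *Dazl*, *Ddx4*, *Mael*, *Stk31*, *Sycp1*, *Sycp3*, *Hormad1*, *Tex101*, *Taf7l* and *Slc25a31*. PolyA RNA was sequenced from 6 libraries, 2 of each of 3 genotypes: wild-type (WT) G4 mESCs, a hybrid line of a 129/Sv and a C57BL/6 parent, and G4 cells with a heterozygous or a homozygous deletion of the region that anchors long-range contacts at *Wnt6*. All 3 genotypes were grown with LIF on feeder cells from CD1 mice, so every library also holds feeder RNA. The deletions were made with Cas9 and a pair of guide RNAs, and single clones were screened. How many clones stand behind each genotype is not given in the sources used here, so a difference between genotypes and a difference between clones cannot be told apart.

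Germline genes are transcribed in the developing egg or sperm and kept low in most other cells. Many of them have a CpG-rich promoter that becomes methylated when the embryo implants and is cleared again in primordial germ cells. In mESCs a variant Polycomb complex, PRC1.6, is known to sit at such promoters through its subunits MGA and MAX, which bind the E-box hexamer CACGTG, and E2F6, which binds E2F-type sites. DNA methyltransferases and histone H3 lysine 9 methyltransferases act at many of the same genes. Promoter methylation was not measured in these libraries, which report RNA alone.

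The promoters of the genes are shown first, to set out which of them carry the E-box and E2F-type sequences named above. For each gene the window runs from 250 bases before to 50 bases after the transcription start annotated by RefSeq on GRCm38.p6, and all 10 genes had one. The E-box hexamer CACGTG, which reads the same on both strands, was found in 8 of the 10 windows, those of all genes but *Dazl* and *Tex101*. Over all 32851 annotated windows of that length the share was 7.15%, and over the 9917 windows with 15 to 38 CpG, the range of the 10 genes, it was 11.3%. The 10 genes were counted with 1 window each, the first. The shares over all windows count every window, and some genes have more than 1. An E2F-type hexamer, GCGGGA or on the other strand TCCCGC, was found in 6 of the 10, against 20.0% of all windows and 43.1% of those in the CpG range. Both hexamers stood in the same 6 windows, against 1.99% of all windows and 4.67% in the CpG range, and nowhere did they overlap. A match is a run of letters and not a measured binding site.

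The 250 bases before the start, on the strand of the gene, are printed for the 3 genes whose levels differed between the deletions. Capitals mark the E-box and E2F-type hexamers. The *Ddx4* stretch is chr13:112652311-112652560 on the minus strand, with the E-box at -29 and the E2F-type hexamer at -136 (first base, where the base before the start is -1 and the start itself 1). The *Hormad1* stretch is chr3:95559427-95559676 on the plus strand, with E-boxes at -57 and -20 and an E2F-type hexamer at -95. The *Slc25a31* stretch is chr3:40708621-40708870 on the plus strand, with the E-box at -93, and its E2F-type hexamer lies after the start, at 21.
Ddx4: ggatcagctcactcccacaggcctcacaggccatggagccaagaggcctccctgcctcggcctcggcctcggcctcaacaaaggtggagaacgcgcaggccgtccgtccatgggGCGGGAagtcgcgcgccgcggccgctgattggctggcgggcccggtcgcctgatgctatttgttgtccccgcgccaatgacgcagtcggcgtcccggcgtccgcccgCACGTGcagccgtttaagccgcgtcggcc
Hormad1: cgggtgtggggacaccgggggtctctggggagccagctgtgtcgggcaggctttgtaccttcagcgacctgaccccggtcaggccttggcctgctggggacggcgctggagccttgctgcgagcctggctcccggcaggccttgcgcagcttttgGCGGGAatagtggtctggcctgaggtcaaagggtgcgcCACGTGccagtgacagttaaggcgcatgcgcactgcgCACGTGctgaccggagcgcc
Slc25a31: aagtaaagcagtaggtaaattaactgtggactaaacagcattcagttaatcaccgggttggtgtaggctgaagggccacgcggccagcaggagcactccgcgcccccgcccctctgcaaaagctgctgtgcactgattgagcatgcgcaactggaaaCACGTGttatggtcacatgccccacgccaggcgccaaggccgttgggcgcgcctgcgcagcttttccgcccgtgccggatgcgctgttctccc

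For the other 5 genes with an E-box, the hexamer is shown in capitals with 12 bases on each side, to let the flanks be compared. They lie at chr1:166238950-166238979 (minus strand) for *Mael*, chr6:49395472-49395501 (plus) for *Stk31*, chr3:102936177-102936206 (minus) for *Sycp1*, chr10:88459511-88459540 and chr10:88459532-88459561 (plus) for *Sycp3*, and chrX:134476522-134476551 (minus) for *Taf7l*.
Mael: taccaggcctacCACGTGacaatccccgcc
Stk31: aggccggccaccCACGTGaccagggctgcg
Sycp1: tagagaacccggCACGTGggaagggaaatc
Sycp3, first: gccgttggctccCACGTGagaacgggcatg
Sycp3, second: acgggcatggagCACGTGctaggaggcggg
Taf7l: accctcttatacCACGTGacagaactcgcc

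The E-box lay within 100 bases before the start in 7 of the 8 genes (for *Stk31*, before the first of its annotated starts), and in *Mael* it lay at -223. The windows held between 15 CpG, in *Sycp3*, and 38, in *Ddx4*, with a median of 23 against 7 over all windows. These distances rest on the RefSeq starts. Counted from the outermost start in the GENCODE annotation of GRCm38, the E-box lay within 100 bases before the start in 5 of the 8 genes, since for *Stk31* it lay at -120 and for *Ddx4* after that start, at 137. The RefSeq start of *Tex101* lies 4625 bases inside the GENCODE gene and that of *Ddx4* 165 bases inside, so the outer starts of these genes are not centred in the windows. In related genes the E-box was found in 6 of 19 promoters of a list of piRNA pathway and germ granule genes. It was found in 4 of 22 of meiotic prophase genes and 2 of 17 of other germline genes. The E2F-type hexamer was found in 4, 13 and 5 promoters of these lists, in that order. Its share in the meiotic list, 59.1%, was close to that of the 10 genes, 6 of 10. Both hexamers stood in 1, 3 and 0 promoters, and the median CpG counts were 17, 17 and 13.

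**Figure D1:**
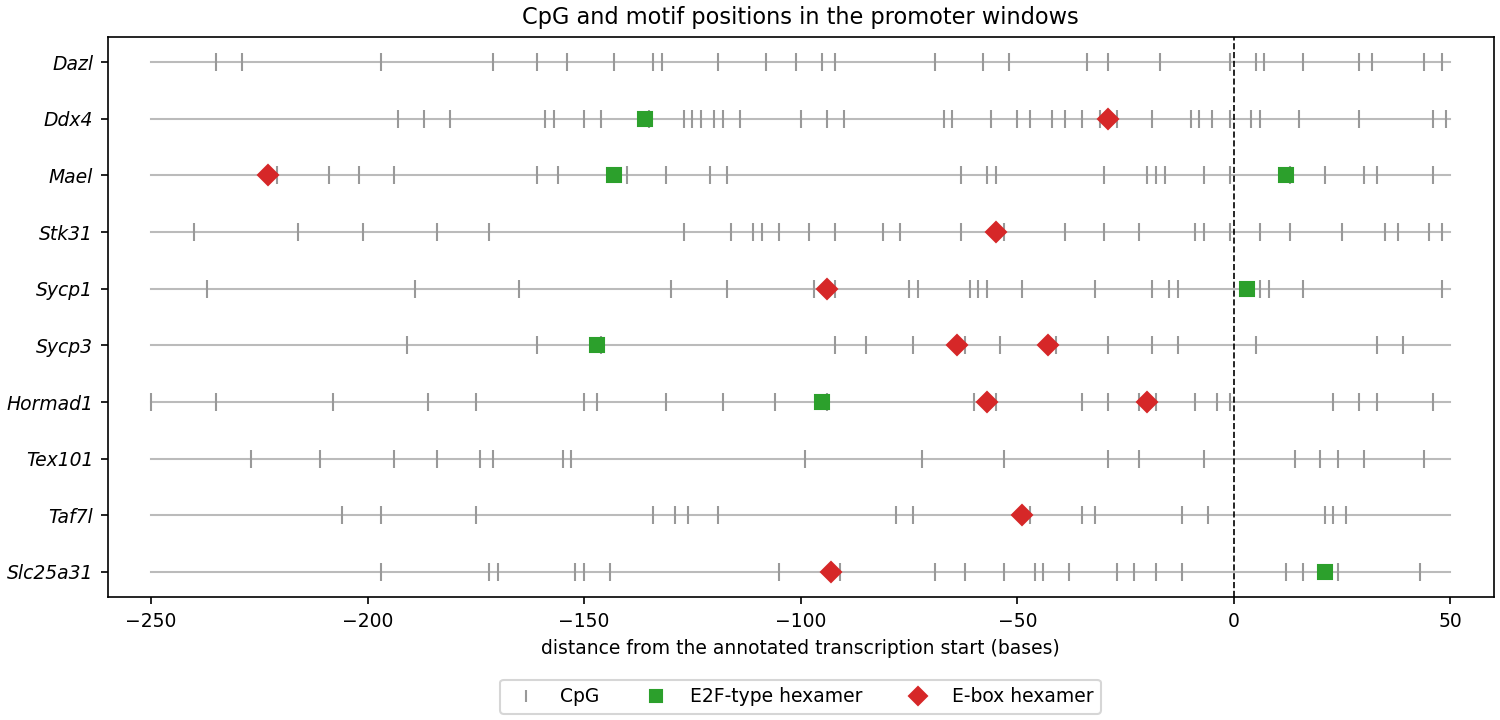
CpG dinucleotides (grey ticks), E-box hexamers (red diamonds) and E2F-type hexamers (green squares) in the promoter windows of the 10 genes, with the distance from the annotated start in bases on the horizontal axis and the start as a dashed line. In 7 of the 8 genes with an E-box it lies in the last 100 bases before the RefSeq start, and *Dazl* and *Tex101* show CpG alone.

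The libraries held between 23813912 and 28964706 counts. A level of 3 counts or fewer was treated as at the floor. In these libraries 3 counts correspond to between 0.102 and 0.131 CPM (counts scaled to a common library size, with totals adjusted by TMM). Tests ran on the 16951 genes that reached 10 counts in 2 or more libraries, and all 10 germline genes passed that filter. The genotypes held against the genes inside the deletion: *Wnt6* had 11 and 13 counts in WT, 6 and 4 with the heterozygous and 0 and 0 with the homozygous deletion. Summed levels of 32 fibroblast markers, chosen to follow feeder RNA, were 5643 and 5570 CPM in WT, 4311 and 4319 with the heterozygous and 3163 and 3134 with the homozygous deletion. None of the 32 was at 0 throughout. How much of this sum came from feeder cells and how much from mESCs was not tested. Of the 890 tested genes on chromosome 8, 547 were higher in the homozygous deletion than in WT, with a median log2 fold change of 0.39, and in the heterozygous deletion 121 were lower, with a median of -0.12. None of the 10 genes lies on chromosome 8. The methods state biological triplicates, while the labels give 2 libraries a genotype and do not say whether these came from separate cultures, so p-values measure the spread between these libraries, part of which may be technical.

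All 10 genes gave reads in every library, so RNA of the whole set was detected. In WT cells the levels per transcript length ran from 0.906 TPM (counts per base of exon, scaled to a common sum) for *Tex101* to 38.5 for *Ddx4*, with a median of 11.5, and 9 of the 10 stood above 1 TPM. *Ddx4* was higher than 83.7% of the 28610 genes with any count in WT cells and *Tex101* higher than 42.9%. Of 14 late germ cell markers, genes of late sperm or egg formation, 8 had 3 counts or fewer in both WT libraries, and *Prm1*, *Tnp1* and *Oosp1* were at 0 in all 6 libraries. That list was mixed, and the egg coat gene *Zp3*, at 17.1 TPM in WT from 185 and 163 counts, stood above the median of the 10 genes. Reads of mESCs and of feeder cells were counted together, and in bulk RNA a few cells with much of a transcript and many cells with little of it cannot be told apart.

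The order of the WT levels per length was *Ddx4* at 38.5 ± 1.25 TPM (SD, n = 2), *Mael* at 19.8 ± 1.86, *Hormad1* at 18.0 ± 0.266, *Sycp3* at 14.0 ± 1.20, *Sycp1* at 13.6 ± 0.306, *Stk31* at 9.36 ± 0.193, *Dazl* at 5.33 ± 0.339, *Taf7l* at 4.45 ± 0.439, *Slc25a31* at 2.51 ± 0.605 and *Tex101* at 0.906 ± 0.0222. Only the neighbours *Sycp3* and *Sycp1* overlapped between libraries. In the heterozygous deletion *Hormad1* stood lower in the order, overlapping *Sycp3*. With the homozygous deletion *Hormad1*, at 18.6 ± 1.28 TPM, overlapped *Mael*. *Ddx4* was first and *Tex101* last in all 3 genotypes.

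**Figure D2:**
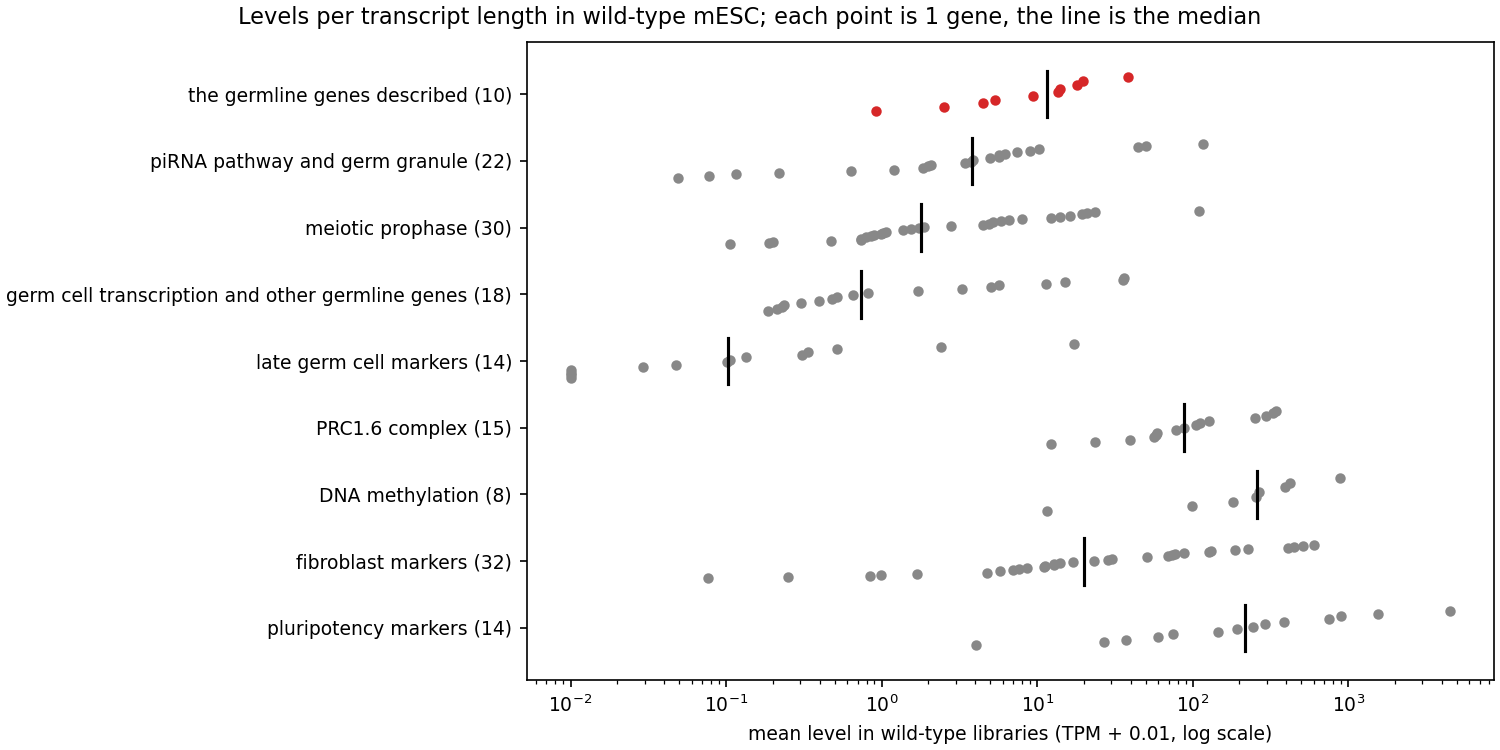
Mean level per transcript length in the 2 WT libraries (TPM plus 0.01, logarithmic axis) of each gene of the 10 and of 8 lists set beside them, with list sizes in parentheses and the median as a black line. The 10 genes have a median of 11.5 TPM, below those of the DNA methylation genes (261 TPM) and PRC1.6 subunits (87.4 TPM) and above those of late germ cell markers (0.0934 TPM).

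To ask whether the germline genes changed with the *Wnt6* anchor deletion, the 3 genotypes were compared pairwise, with a call at a Benjamini-Hochberg adjusted p below 0.05 in edgeR's quasi-likelihood test over all tested genes. The 3 comparisons share libraries, so their calls are not independent of each other. In the heterozygous deletion 1 of the 10 genes, *Hormad1*, fell against WT, where 5.14% of all tested genes were called, 2.23% higher and 2.91% lower. None of the 10 rose, with 0 higher at an unadjusted p below 0.05 and 0 by DESeq2. Of the 10, *Ddx4* alone rose in the homozygous deletion against WT, where 21.4% of all tested genes were called, 10.9% higher and 10.5% lower. None fell, with 0 lower at an unadjusted p below 0.05 and 0 by DESeq2. Against the heterozygous deletion, 3 of the 10 were higher in the homozygous deletion, *Ddx4*, *Hormad1* and *Slc25a31*, where 25.8% of all tested genes were called and 12.9% were higher. None of the 10 was called lower in that comparison, with 1 (*Mael*) at an unadjusted p below 0.05 and 0 by DESeq2. DESeq2 gave no adjusted p for 2, 1 and 2 of the 10 genes in these 3 comparisons, so its counts cover the rest only. Chromosome 8 holds none of the 10 genes, and of the 16061 tested genes elsewhere 2.32% fell in the heterozygous and 8.09% rose in the homozygous deletion against WT, and 1606 genes were higher in the homozygous than the heterozygous deletion. In a set of 10 genes a single call is already 10%, and whether the set differs from the background was not tested.

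The median log2 fold change of the 10 genes was -0.10 in the heterozygous deletion against WT, 0.06 in the homozygous deletion against WT and 0.22 in the homozygous against the heterozygous deletion. Over all tested genes the medians were 7.69e-06, -0.0061 and -0.02. Summed over the 10 genes, the levels were 87.6 and 88.4 CPM in WT, 79.4 and 84.9 in the heterozygous libraries and 96.1 and 97.5 in the homozygous ones, of which *Ddx4* alone made up 32.9 and 32.0, 29.2 and 33.3, and 39.5 and 40.7 CPM. None of the 10 genes passed 2-fold in any comparison, by edgeR with or without the call, where 0.165%, 2.14% and 1.39% of all tested genes were called and past 2-fold.

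**Figure D3:**
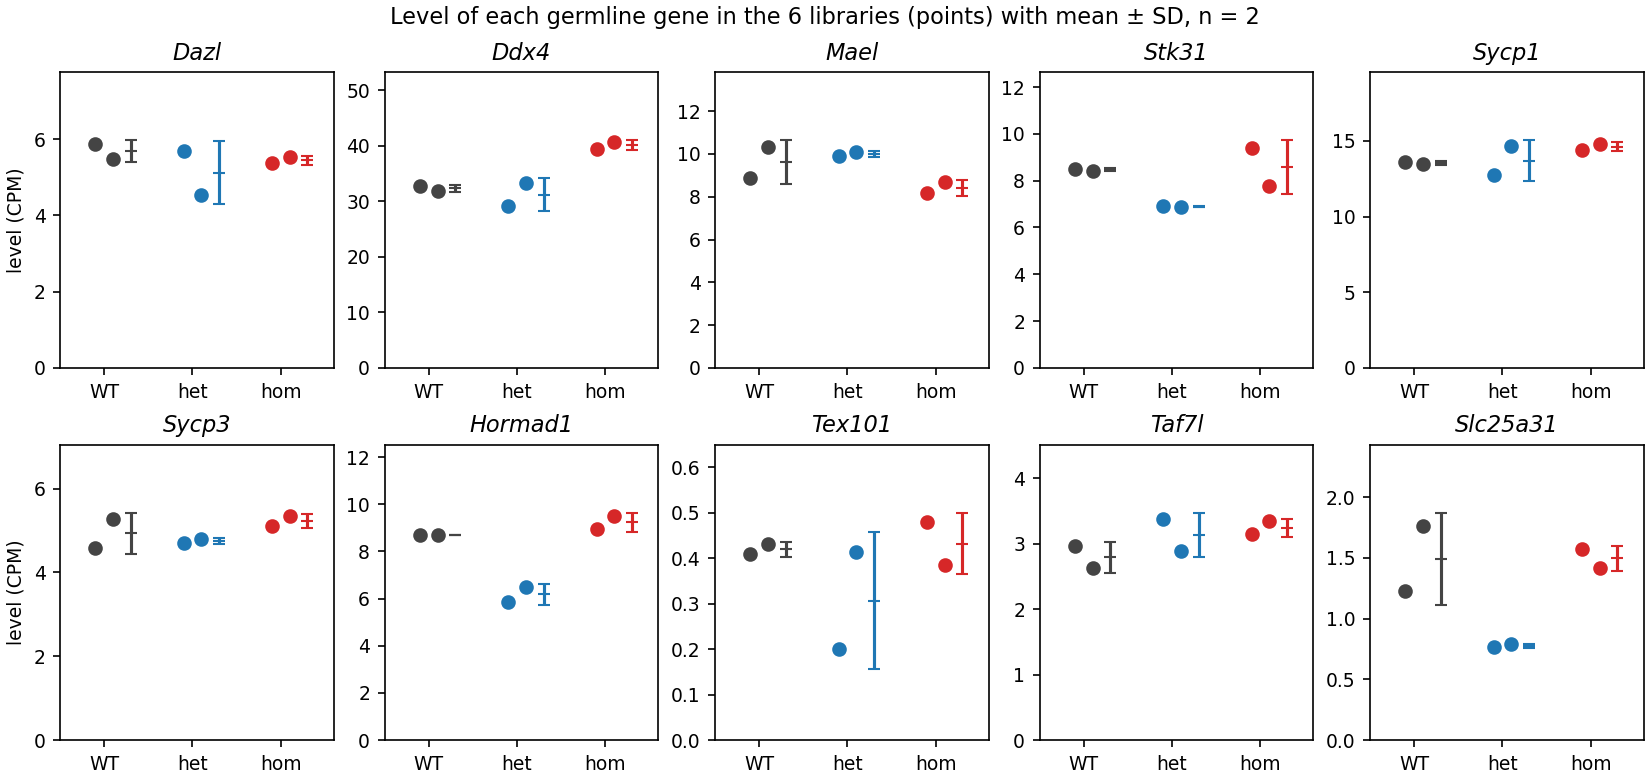
Level of each gene in CPM (vertical axes from 0, a scale per gene) in the 2 WT, 2 heterozygous (het) and 2 homozygous (hom) deletion libraries, with points for libraries and bars for the mean ± SD (n = 2). *Hormad1* and *Slc25a31* are lowest in the heterozygous libraries, and *Ddx4* is highest in the homozygous libraries.

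The first group of genes acts on RNA in the germ cell cytoplasm. *Ddx4* encodes the VASA RNA helicase of the germ granule and lies at chr13:112598333-112652475 of GRCm38 (minus strand). It was at 32.9 and 32.0 CPM in WT, 29.2 and 33.3 in the heterozygous libraries and 39.5 and 40.7 in the homozygous ones. Both homozygous libraries were above the other 4, while WT and heterozygous libraries overlapped. The rise in the homozygous deletion was a log2 fold change of 0.31 ± 0.0672 (SE) against WT, or 1.24-fold (adjusted p = 0.00222, edgeR's quasi-likelihood test). Against the heterozygous deletion it was 0.36 (adjusted p = 0.000531, edgeR), or 1.28-fold. The heterozygous deletion differed from WT by -0.05 (95% interval -0.20 to 0.09).

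*Stk31*, a gene for a Tudor domain protein with a kinase domain found in germ cells, lies at chr6:49395604-49469501 (plus strand). It was at 8.50 and 8.41 CPM in WT, 6.91 and 6.87 in the heterozygous libraries and 9.38 and 7.76 in the homozygous ones. The heterozygous libraries were the lowest, but no difference passed the test in the fit used throughout: the log2 fold change was -0.30 against WT (adjusted p = 0.177, edgeR) and 0.31 for the homozygous against the heterozygous deletion (adjusted p = 0.0607, edgeR). The second was called with DESeq2's size factors in edgeR (adjusted p = 0.0497) and without homozygous replicate 2 (0.0123).

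*Mael* encodes Maelstrom, a protein needed for transposon silencing by piRNAs, and lies on the chromosome of the deletion, at chr1:166201201-166238747 (minus strand), 91.5 Mb from *Wnt6*. It was at 8.88 and 10.3 CPM in WT, 9.92 and 10.1 in the heterozygous libraries and 8.16 and 8.68 in the homozygous ones. Its homozygous libraries were the lowest of the 6, unlike those of *Ddx4*, with a log2 value of -0.18 against WT (adjusted p = 0.256, edgeR) and -0.25 against the heterozygous deletion (adjusted p = 0.100, edgeR). With libraries scaled by their total counts alone, the latter was called, at -0.31 (adjusted p = 0.0381, edgeR).

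*Dazl*, an RNA-binding regulator of translation in germ cells, lies at chr17:50279395-50293636 (minus strand). It was at 5.88 and 5.48 CPM in WT, 5.70 and 4.54 in the heterozygous libraries and 5.37 and 5.53 in the homozygous ones, and the groups overlapped in each comparison. The 95% intervals of its log2 differences were -0.44 to 0.13 for the heterozygous and -0.35 to 0.22 for the homozygous deletion against WT.

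The second group builds the chromosome axis and the synaptonemal complex of meiosis. *Hormad1*, a HORMA domain protein of unsynapsed chromosome axes, lies at chr3:95559677-95587671 (plus strand). It was at 8.71 and 8.69 CPM in WT, 5.86 and 6.50 in the heterozygous libraries and 8.94 and 9.52 in the homozygous ones. The heterozygous libraries lay below the other 4, and the homozygous libraries a little above WT. The fall in the heterozygous deletion was a log2 fold change of -0.49 ± 0.111 (SE), or 0.712 of the WT level (adjusted p = 0.0110, edgeR). DESeq2 did not call it (adjusted p = 0.0886), nor did edgeR without WT replicate 1 (0.0989), WT replicate 2 (0.0905) or heterozygous replicate 1 (0.108). The homozygous deletion was 1.49-fold above the heterozygous, at 0.58 ± 0.112 (adjusted p = 0.000659, edgeR), and differed from WT by 0.09 (95% interval -0.13 to 0.31).

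*Sycp1* encodes the transverse filament of the synaptonemal complex (chr3:102818499-102936100, minus strand). It was at 13.6 and 13.5 CPM in WT, 12.8 and 14.6 in the heterozygous libraries and 14.4 and 14.8 in the homozygous ones. The largest of its 3 log2 differences was 0.11, for the homozygous deletion against WT (95% interval -0.08 to 0.30), which did not pass the test.

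*Sycp3* encodes a core protein of the lateral element (chr10:88459569-88473236, plus strand). It was at 4.59 and 5.28 CPM in WT, 4.70 and 4.81 in the heterozygous libraries and 5.10 and 5.34 in the homozygous ones, and passed the test in no comparison. Of its exon length, 52.2% overlaps exons of *Chpt1* on the opposite strand, which had between 168 and 259 counts in the 6 libraries against 117 to 139 for *Sycp3*. The kit marks strand, but whether the counting used it is not given in the sources used here, and without it reads of the shared 660 bases cannot be assigned. No other gene of the 10 shares exons with a neighbour.

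The remaining genes have other roles in sperm formation. *Slc25a31* encodes the ADP/ATP carrier of germ cell mitochondria and lies at chr3:40708855-40726096 (plus strand). It had 36 and 45 counts in WT, 19 and 21 in the heterozygous libraries and 36 and 37 in the homozygous ones, with means of 1.49 CPM in WT and 0.776 in the heterozygous deletion. As for *Hormad1*, the heterozygous libraries lay below the other 4. The homozygous deletion was 1.92-fold above the heterozygous, at 0.94 ± 0.296 (SE) on the log2 scale (adjusted p = 0.0249, edgeR). That call was lost without heterozygous replicate 1 (adjusted p = 0.110), heterozygous replicate 2 (0.0993) or homozygous replicate 1 (0.0808). Against WT the heterozygous deletion was at -0.92 ± 0.291 and did not pass the test (adjusted p = 0.0780, edgeR), although it passed in the fit of the WT and heterozygous libraries alone (adjusted p = 0.0427).

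*Taf7l* encodes a germ cell variant of a TFIID subunit and lies on the X chromosome, at chrX:134460118-134476490 (minus strand). It was at 2.96 and 2.62 CPM in WT, 3.37 and 2.89 in the heterozygous libraries and 3.14 and 3.34 in the homozygous ones. The homozygous libraries were above those of WT and within the heterozygous range, with a log2 difference from WT of 0.21 (95% interval -0.15 to 0.58), which did not pass the test.

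*Tex101* encodes a surface glycoprotein of germ cells (chr7:24668007-24676675, minus strand) and was the lowest of the 10. It had 12 and 11 counts in WT, 5 and 11 in the heterozygous libraries and 11 and 10 in the homozygous ones. At these counts the 95% interval of the homozygous against WT log2 difference ran from -0.93 to 1.0, so a 1.5-fold difference was not detectable at this depth.

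**Figure D4:**
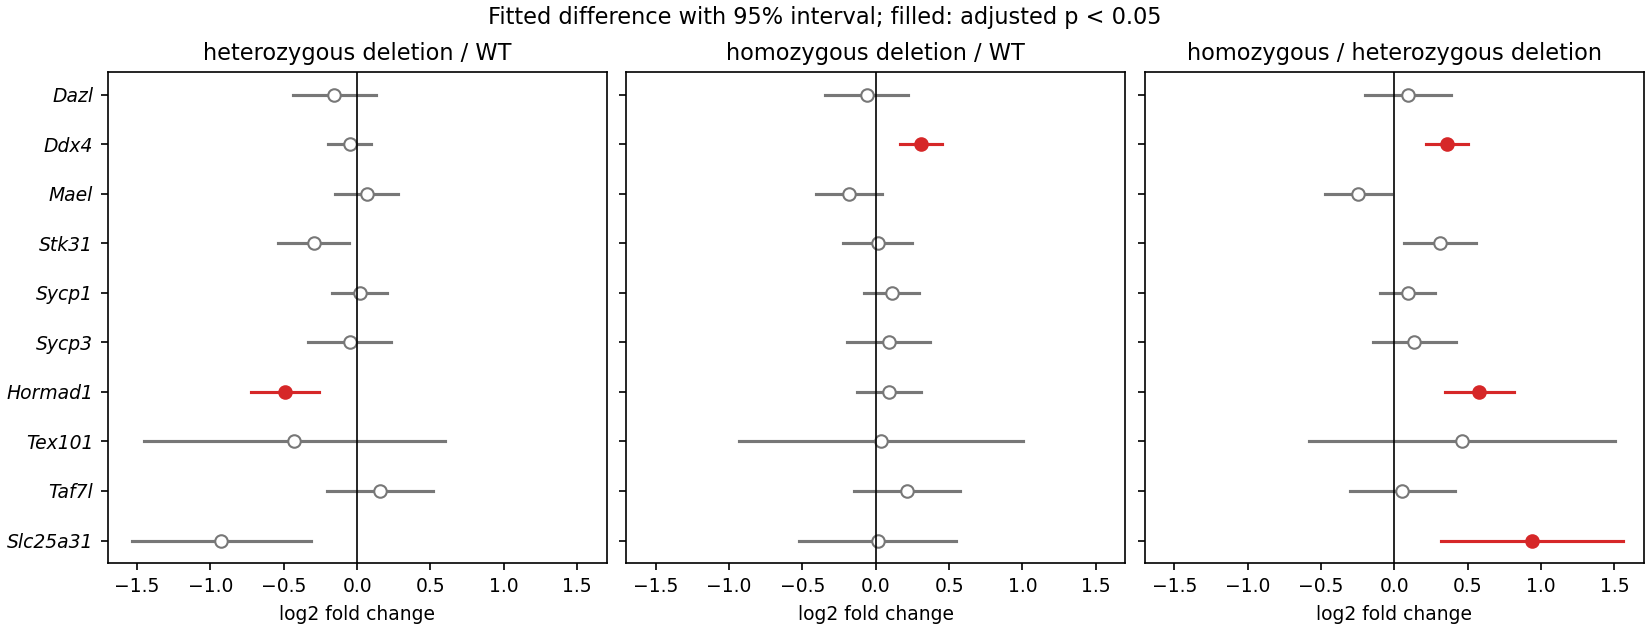
Fitted log2 fold change of each gene (horizontal axis) with its 95% interval in the 3 comparisons, with filled red points for an adjusted p below 0.05 in edgeR's quasi-likelihood test. *Hormad1* is filled in the heterozygous deletion against WT (-0.49), *Ddx4* in the homozygous deletion against WT (0.31), and *Ddx4*, *Hormad1* and *Slc25a31* in the homozygous against the heterozygous deletion (0.36, 0.58 and 0.94).

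Counting genes whose libraries did not overlap, 3 of the 10 were lower and 0 higher in the heterozygous deletion than in WT, where 24.0% and 23.7% of all tested genes were. In the homozygous deletion against WT, 4 were higher and 1 lower, against 28.4% and 29.4%. For the homozygous against the heterozygous deletion, 5 were higher and 1 lower, against 28.6% and 32.8%.

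Other genes of the same pathways were taken from lists. Their counts stand against all tested genes, of which 2.23% rose and 2.91% fell in the heterozygous and 10.9% rose and 10.5% fell in the homozygous deletion against WT, while between the deletions 12.9% were higher and 12.9% lower. Of 22 genes of the piRNA pathway and germ granule, 19 were tested. In the heterozygous deletion 2 fell and 0 rose (1 higher at an unadjusted p below 0.05, 0 by DESeq2): *Tdrd12*, at -0.39, and *Rnf17*, at -0.18. Against WT, 4 rose and 4 fell in the homozygous deletion. Those that rose include *Tdrd1*, a Tudor domain scaffold (0.48), *Piwil2*, a PIWI protein (0.40), and *Tdrkh* (0.33). Those that fell include *Gpat2* (-1.07), *Rnf17* (-0.43) and *Tdrd12* (-0.32). Against the heterozygous deletion 5 were higher and 4 lower, with *Piwil2* at 0.70, *Mov10l1*, a helicase of piRNA precursors, at 0.57 and *Gpat2* at -1.05. DESeq2 did not call *Rnf17* in the heterozygous deletion (adjusted p = 0.126) or *Tdrkh* (0.229). With total counts alone the splits were 2 higher and 4 lower against WT and 4 higher and 5 lower between the deletions. The list thus moved in both directions, and its median log2 fold change in the homozygous deletion against WT was -0.02.

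Of 30 meiotic prophase genes, 27 were tested. In the heterozygous deletion 2 fell and 0 rose (1 higher at an unadjusted p below 0.05, 0 by DESeq2): *Tex14*, which holds open the bridges between germ cells, at -0.56, and *Syce2*, a central element protein of the synaptonemal complex, at -0.28. Against WT, 6 rose and 0 fell in the homozygous deletion (0 lower at an unadjusted p below 0.05, 0 by DESeq2), with the largest values for *Terb1* (1.11), *Tex15* (0.56) and *Syce2* (0.51). These 3 lie on chromosome 8, where 61.5% of tested genes were higher in the homozygous deletion, and their part in the list's count was not tested. Between the deletions 7 were higher and 1 lower, among them *Tex14* at 0.92 and *Rec114*, a partner of the meiotic break machinery, at -1.08. DESeq2 gave no adjusted p for *Terb1* and *Rec114*, which had few counts.

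Of 18 other germline genes, 12 were tested, and 2 rose and 1 fell in the homozygous deletion against WT. *Usp26*, an X-linked germ cell ubiquitin protease, had 192 and 170 counts in WT, 93 and 108 with the heterozygous and 21 and 27 with the homozygous deletion. The levels fell in both deletions, at -0.76 (adjusted p = 0.00147, edgeR) and -2.74 (adjusted p = 1.3e-09, edgeR), and were lower in the homozygous deletion than in the heterozygous. The summed fibroblast markers moved in the same order across the genotypes, and their part in this result was not tested. *Rpl10l*, a retrogene of *Rpl10* with a closely similar sequence, rose in the homozygous deletion (0.54), and its counts are uncertain where reads of the parent gene could be split. *Tex16*, with 32 and 23 counts in WT and 37 and 47 in the homozygous deletion, also rose, at 0.78. That call was lost by DESeq2 (adjusted p = 0.216) and with total counts alone (0.0532), which left 1 of the list higher and 1 lower.

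Genes that open or keep shut the germline programme were read in the same way. Among the 9 genes of germ cell entry, *Tfap2c*, a factor of primordial germ cells, fell in the homozygous deletion against WT (-0.22), a call that DESeq2 did not make (adjusted p = 0.114). Of 15 PRC1.6 genes, 3 rose and 1 fell in that comparison: *Mga* rose (0.39, from 7823 and 5911 counts in WT to 7835 and 8103), *Tfdp1*, on chromosome 8, rose (0.58), *L3mbtl2* rose (0.12) and *Cbx1* fell (-0.21). With total counts alone the split was 2 higher and 2 lower, and neither that scaling (adjusted p = 0.241) nor DESeq2 (0.0752) called *L3mbtl2*. Between the deletions 4 of the 15 were higher in the homozygous deletion and 2 lower (3 and 2 with total counts alone). The higher genes include *Tfdp1* (0.71), *Mga* (0.43) and *L3mbtl2* (0.19). The lower genes were *Cbx1* (-0.19) and *E2f6*, at -0.17 (adjusted p = 0.0224, edgeR), the latter not called by DESeq2 (0.114). In the heterozygous deletion against WT 0 of the 15 were called by edgeR (1 higher and 1 lower at an unadjusted p below 0.05, 0 by DESeq2).

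Of 8 DNA methylation genes, 2 fell in the heterozygous deletion, the de novo methyltransferase *Dnmt3a* (-0.18) and its cofactor *Dnmt3l* (-0.14). In the homozygous deletion 2 rose, the maintenance methyltransferase *Dnmt1* (0.13) and the remodeller *Hells* (0.19), but with total counts alone 1 was higher and 3 lower, so the list has no direction that holds under both scalings. Among 4 genes of DNA demethylation, *Tet2* (0.33), *Tdg* (0.22) and *Tet1* (0.19) rose in the homozygous deletion, and *Tet1* was called neither with total counts alone (adjusted p = 0.113) nor by DESeq2 (0.227). Of 7 other repressors of germline genes 3 rose, led by *Smchd1* (0.27) and *Kdm5c*, a histone H3 lysine 4 demethylase (0.19), and 2 were called with total counts alone.

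Markers of the cell states in the culture moved as well. Of 14 pluripotency markers, 7 fell in the heterozygous deletion, with *Esrrb* at -0.38, and 10 were higher in the homozygous deletion than in the heterozygous, where 12.9% of all tested genes were higher. With total counts alone 6 were, and DESeq2 called 5 lower in the first comparison and 8 higher in the second. In the homozygous deletion against WT, 1 of the 14 rose and 1 fell, with a median log2 fold change of 0.01. Their summed level was 3655 and 3719 CPM in WT, 3385 and 3337 in the heterozygous libraries and 3873 and 3674 in the homozygous ones. The markers *Zfp42* and *Klf2*, called in the heterozygous deletion against WT and between the deletions, lie on chromosome 8. There 13.6% of tested genes fell in the heterozygous deletion against WT, and 65.7% were higher in the homozygous than the heterozygous deletion. The part of chromosome 8 in the marker counts was not tested. Of 30 tested fibroblast markers, 23 fell with the heterozygous and 28 with the homozygous deletion, with medians of -0.49 and -1.08, as for *Tnc* at -0.73 and -1.42. Markers of a 2-cell-like state were near the floor, and 2 of the 10 were tested, *Zscan4a* and *Zscan4c*. Both passed the count filter through the homozygous libraries alone, so a rise there is not independent of that filter. *Zscan4c* had 2 and 3 counts in WT, 5 and 4 with the heterozygous and 10 and 11 with the homozygous deletion, with no adjusted p by DESeq2. The part of these cell mixtures in the values of the 10 genes was not tested.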

How the data were processed

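The 6 libraries, 2 per genotype by the labels (the methods state biological triplicates), were polyA-selected and prepared with a stranded KAPA mRNA kit. The authors deposited unnormalized read counts per gene. The submitters' processing notes list Trimmomatic 0.39, STAR 2.6.1d, SAMtools 1.9, featureCounts 1.6.4 and DESeq2 1.22.2 with mm10. The annotation release and strand setting are not given in the sources used here.

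From the counts, genes that reached 10 counts in 2 or more libraries were kept, and 1 quasi-likelihood model of 3 genotypes was fitted in edgeR 4.0.16 (limma 3.58.1, R 4.3.3) with TMM factors and Benjamini-Hochberg adjustment over all 16951 genes (common biological coefficient of variation 3.52%). The fit was tested on simulated data. Replicates differed by more than sampling noise (chi-square per degree of freedom 2.34 to 3.65). CPM used TMM-adjusted totals, and TPM used exon lengths of the GRCm38 annotation, in which 55144 identifiers were found. Floors and intervals cover counting error or the spread between these libraries only. The members and 12 further lists (183 genes) were chosen with earlier results of these data known. Named genes are every member and, per list and comparison, up to 3 highest and 3 lowest fold changes among called genes whose libraries did not overlap, plus *Wnt6* and *Cdk5r2*, of which the text gives a part. *Usp26* by library, *Prm1*, *Tnp1*, *Oosp1*, *Zp3* in WT and *Chpt1* were named after their values were seen. *Cdk5r2*, also within the deletion, had 30 and 27, 16 and 17, and 1 and 2 counts. Alternatives were DESeq2 1.42.0, other scalings, filters and sample sets, robust estimation, a replicate block, a 2-fold threshold and each library left out. Motifs were searched in RefSeq windows of GRCm38.p6. 1 list symbol had no match in the count table.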

Additional observations from a re-analysis of the deposited data

Results flagged for a closer look

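For some genes the effects of both deletions against wild-type differed, by edgeR's quasi-likelihood test (adjusted p below 0.05) of the homozygous against the heterozygous deletion; all values are log2 fold changes in that comparison. Of the 10 germline genes these were *Ddx4* (0.36), *Hormad1* (0.58) and *Slc25a31* (0.94), all higher in the homozygous deletion. In the piRNA list 5 were higher and 4 lower. The highest were *Piwil2* (0.70), *Mov10l1* (0.57) and *Tdrd1* (0.44), and the lowest *Gpat2* (-1.05), *Tdrd7* (-0.40) and *Rnf17* (-0.25). DESeq2 did not call *Tdrd7* (adjusted p = 0.147). In the meiotic list 7 were higher, led by *Tex14* (0.92), *Syce2* (0.79) and *Tex15* (0.59), and 1, *Rec114* (-1.08), was lower. Of these *Syce2* and *Tex15* lie on chromosome 8. Among the other germline genes *Rpl10l* (0.69) was higher and *Usp26* (-1.99) lower. Over all tested genes 25.8% were called in this comparison.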

How the results depend on the processing

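Of the values recomputed under the alternatives, 440 kept their direction and side of the threshold, 18 changed sign, 7 gained a call and 7 lost it. The count of germline genes called in the heterozygous deletion against WT (1) was 0 by DESeq2, 0 past 2-fold, 2 with no filter on low counts or with only the libraries compared, and 0 to 2 with a library left out. In the homozygous deletion (1) it was 0 past 2-fold, and *Ddx4* was called in all 6 fits that left out a library. Between the deletions (3) it was 0 past 2-fold, 2 by DESeq2, where *Slc25a31* had no adjusted p, 4 with DESeq2's size factors in edgeR (*Stk31* added) or with total counts alone (*Mael* added), and 2 to 4 with a library left out. The other lists (38, 62 and 77 calls) gave 0, 21 and 4 past 2-fold, and 25 to 44 in the heterozygous deletion with a library left out, the lowest without heterozygous replicate 2. With total counts alone the 62 calls, 25 higher, became 58 with 17 higher, and the 77, 42 higher, became 64 with 26 higher. With total counts alone the median of all genes moved to -0.063 in the homozygous deletion against WT and -0.086 between the deletions, and values of uncalled genes that lay near 0 fell below it for *Stk31* (-0.045), *Tex101* (-0.020) and *Slc25a31* (-0.043) in the homozygous deletion against WT and *Taf7l* (-0.012) between the deletions. With a library left out, log2 values in the heterozygous deletion spanned -0.32 to 0.0027 for *Dazl*, -0.15 to 0.040 for *Ddx4*, -0.045 to 0.17 for *Mael*, -0.086 to 0.11 for *Sycp1* and -0.15 to 0.050 for *Sycp3*. In the homozygous deletion they spanned -0.13 to 0.15 for *Stk31*, -0.016 to 0.20 for *Sycp3*, -0.12 to 0.20 for *Tex101* and -0.24 to 0.29 for *Slc25a31*, and between the deletions -0.066 to 0.26 for *Dazl*, -0.0031 to 0.19 for *Sycp1* and -0.056 to 0.17 for *Taf7l*. The cause of the changes with a library left out was not tested. With the replicate number as a block the counts were 1, 1 and 3 for the germline genes and 36, 58 and 71 for the other lists. Same-numbered libraries did not deviate together (correlations 0.026, -0.125 and 0.011). Crossing the homozygous numbers, an alternative chosen after seeing the data, gave 1, 1 and 3, and 40, 63 and 75.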
